A study of Mus musculus with 14 samples.

Results

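The 10 genes described here encode the core of the G1 phase machinery: the D-type cyclins Ccnd1, Ccnd2 and Ccnd3, their kinases Cdk4 and Cdk6, the E-type cyclins Ccne1 and Ccne2, and the inhibitors Cdkn1b (p27), Cdkn2c (p18) and Cdkn2d (p19). They were taken by symbol from the 45706 gene rows of each of the study's 2 tables of estimated read counts; every symbol had 1 row in each table, and all 10 passed the filter on low counts in every comparison. The study removed Prmt5, an enzyme that places symmetric methyl marks on arginines, from mouse blood cells and sequenced total RNA from 14 libraries. E14.5 fetal livers were sorted by Ter119, a surface antigen of maturing red cells, into a negative (Ter119neg) and a positive (Ter119pos) fraction, each with 2 PRMT5fl/fl; Vav-cre libraries (KO) and 2 PRMT5fl/fl libraries without Cre (WT). Adult LK cells, a sorted progenitor population, came from Mx1-cre;PRMT5fl/fl (KO, 3 libraries) and PRMT5fl/fl mice (WT, 3 libraries) 7 days after poly(I:C) injections. Vav-cre acts throughout the blood lineages, and Mx1-cre is switched on by interferon in many tissues besides blood. The floxed alleles are shared by every group, Cre is present in the KO groups alone, and the LK design text gives poly(I:C) for both genotypes. Fetal mice 1 and 2 (KO) and 4 (WT) each gave both fractions, while mouse 3 gave only the first Ter119neg WT library and mouse 5 only the first Ter119pos WT library. For LK cells the labels give letters but no mouse numbers, so the LK tests take in whatever spread these libraries have, which may be technical.

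Cells enter a division cycle through G1, when D-type cyclins bind Cdk4 or Cdk6 and phosphorylate the retinoblastoma protein family; E-type cyclins with Cdk2 complete the step, and E2F factors then turn on genes for DNA replication. The INK4 proteins p18 and p19 block Cdk4 and Cdk6 by binding the kinase, whereas p27 binds whole cyclin-kinase complexes and restrains Cdk2 in particular. Red cell precursors divide a limited number of times while they mature, with cyclin D3 the D-type cyclin best known for setting that number, Cdk6 a gene of immature cells, and p18, p19 and p27 known for their part in the final exit from the cycle.

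All 10 genes are protein-coding in the GRCm38 annotation of GENCODE M21. The upstream DNA of 3 of them is shown, those with a window nearly free of annotated exon bases. Between the fetal fractions Ccnd3 and Cdkn1b were higher in the Ter119pos fraction and Cdk4 was lower. The sequences are from RefSeq (GRCm38.p6), read 5′ to 3′ along the gene's plus strand up to its annotated start. Capitals mark matches to CCNCNCCC, a motif of the KLF factors, on either strand, with overlapping matches joined.
Ccnd3, chr17:47504801-47505050: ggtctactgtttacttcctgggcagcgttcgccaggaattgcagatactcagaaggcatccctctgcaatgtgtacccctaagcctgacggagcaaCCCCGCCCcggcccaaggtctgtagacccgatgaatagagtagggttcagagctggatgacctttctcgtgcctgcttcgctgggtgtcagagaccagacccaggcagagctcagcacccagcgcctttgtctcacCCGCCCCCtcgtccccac
Cdk4, chr10:127063285-127063533: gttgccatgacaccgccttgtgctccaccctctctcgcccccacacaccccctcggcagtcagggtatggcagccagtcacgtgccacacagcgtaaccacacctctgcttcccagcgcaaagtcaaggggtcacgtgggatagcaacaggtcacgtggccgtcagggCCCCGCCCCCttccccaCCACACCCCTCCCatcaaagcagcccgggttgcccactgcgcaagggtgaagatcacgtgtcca
Cdkn1b, chr6:134920151-134920400: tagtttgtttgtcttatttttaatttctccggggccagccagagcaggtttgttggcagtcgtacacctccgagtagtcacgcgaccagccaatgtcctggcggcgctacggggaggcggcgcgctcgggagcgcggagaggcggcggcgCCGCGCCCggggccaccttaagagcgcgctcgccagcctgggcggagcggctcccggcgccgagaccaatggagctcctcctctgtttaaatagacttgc
The Ccnd3 window held 2 matches, the Cdk4 window 4 and the Cdkn1b window 1, so that genes of both directions carried the motif. RefSeq windows of 250 bases before an annotated RefSeq start were matched for 7 members (the 3 shown, Cdk6, Ccne1, Cdkn2c and Cdkn2d), while Ccnd1, Ccnd2 and Ccne2 were not matched. Ccnd3 and Cdkn2c had a second window each, and 8 of the 9 windows held at least 1 KLF match (the second Cdkn2c window held 0), compared with 45.9% of 32851 windows of the same length over all genes. By GENCODE M21, the first Cdkn2c window lies wholly in an annotated exon and 198 of the 250 bases of the Cdkn2d window do. The first windows of the 7 genes had between 59.6% and 77.2% G and C, against a median of 52.4% over all windows, and the motif is itself rich in C. None of the 9 held a GATA match (AGATAA or AGATAG or TGATAA or TGATAG on either strand, in 26.5% of all windows) or an E2F match (TTTCCCGC or TTTCGCGC or TTTGCCGC or TTTGGCGC, in 1.86%). These letter matches are descriptions only.

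Library totals ran from 19514550 to 30976961 counts. In each population the KO libraries all had less Prmt5 RNA than the WT libraries. Its CPM (read counts scaled to library size with TMM factors) was 10.5 to 12.3 in LK KO against 63.1 to 110 in LK WT, 4.26 to 4.51 against 51.8 to 52.3 in Ter119neg cells, and 3.64 to 4.92 against 13.8 to 17.7 in Ter119pos cells. The sort was visible in the 7 measured erythroid genes, whose summed CPM was at least 301200 in each Ter119pos library and at most 1375 in each Ter119neg library. The 2 LK libraries with letter B carried 18.04% (WT) and 23.4% (KO) of their counts on 18S ribosomal RNA genes, and at most 0.18% in the other 4. LK libraries of the same letter also deviated together from their group means (r = 0.70, 0.80 and 0.82 across genes), so the LK tests are given with and without the letter as a block. In bulk RNA, fewer cells of a type and less RNA per cell cannot be told apart.

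**Figure D1:**
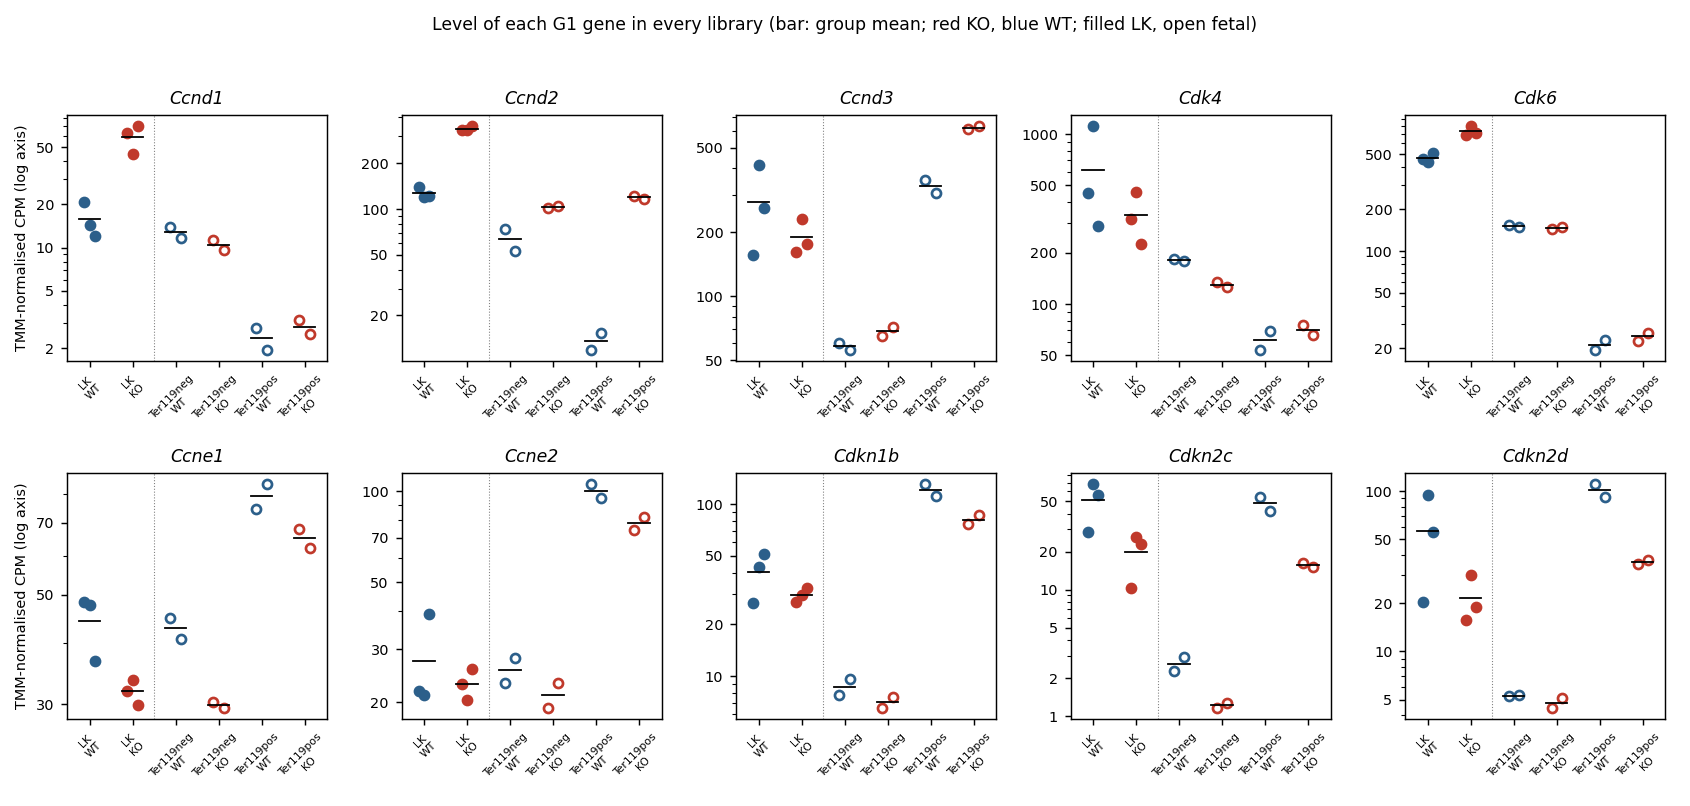
TMM-normalised CPM (log axis, a separate scale for each gene) of the 10 genes in all 14 libraries; points are libraries, bars are group means, red is KO, blue is WT, filled points are adult LK and open points are fetal fractions. Ccnd2 stands near 100 CPM or above in every KO library and between 11.9 and 15.2 CPM in the Ter119pos WT libraries.

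In normal fetal liver the 10 genes divided into a set that was lower and a set that was higher in Ter119pos cells. Ccnd1, Ccnd2, Cdk4 and Cdk6 fell, and Ccnd3, both E-type cyclins and all 3 inhibitors rose, each with adjusted p under 0.05 by edgeR's quasi-likelihood test with Benjamini-Hochberg adjustment over 15566 genes, a threshold that defines every call below. Of all genes tested, 76.3% were called in this comparison, so that a call by itself says little about these members. The median difference of the 10 was 1.43 on the log2 scale and that of all genes -0.19.

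Among the D-type cyclins, Ccnd3 had 60.1 and 55.7 CPM in the 2 Ter119neg WT libraries and 354 and 308 CPM in the 2 Ter119pos WT libraries. Ccnd2 went the other way, from 73.8 and 53.1 to 11.9 and 15.2 CPM. Ccnd1 was low throughout, with 13.9 and 11.7 CPM falling to 2.77 and 1.94. The log2 difference was 2.51 ± 0.14 (SE, adjusted p = 8.04e-09) for Ccnd3, -2.23 ± 0.17 (adjusted p = 1.24e-07) for Ccnd2 and -2.44 ± 0.20 (adjusted p = 2.42e-07) for Ccnd1. Computed per kilobase of the longest annotated transcript, Ccnd3 made up 53.0% ± 3.76 (SD, n = 2) of summed D-type cyclin CPM in Ter119neg WT cells and 96.8% ± 0.55 in Ter119pos WT cells.

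The kinases were both lower in Ter119pos WT cells. Cdk6 had 154 and 150 CPM in the Ter119neg WT libraries and 19.4 and 22.8 in the Ter119pos WT libraries, a log2 difference of -2.85 ± 0.13 (adjusted p = 1.12e-09). Cdk4 had 185 and 179 CPM before and 53.6 and 69.0 after, a difference of -1.57 ± 0.14 (adjusted p = 5.32e-07). Of these members Cdk6 thus showed the steepest drop, and the kinase pool per kilobase shifted further to Cdk4, from 87.1% ± 0.06 to 94.2% ± 0.33 (SD, n = 2).

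The inhibitors were low in Ter119neg WT cells and rose together in Ter119pos WT cells. Cdkn2c had 2.28 and 2.91 CPM in the first fraction and 54.5 and 41.7 in the second, 18.6-fold higher (log2 4.22 ± 0.17, adjusted p = 4.31e-10). Cdkn2d went from 5.25 and 5.34 to 110 and 91.4 CPM, 19.0-fold higher (log2 4.25 ± 0.13, adjusted p = 7.37e-11). Cdkn1b went from 7.74 and 9.59 to 131 and 111 CPM (log2 3.80 ± 0.15, adjusted p = 3.09e-10). No library of one fraction overlapped the other for any inhibitor, as was the case for all 10 members and for 89.2% of all genes tested. The E-type cyclins rose less: Ccne1 from 44.96 and 40.6 to 74.4 and 83.7 CPM (log2 0.89 ± 0.11, adjusted p = 9.84e-06) and Ccne2 from 23.2 and 28.0 to 106 and 94.9 CPM (log2 1.97 ± 0.13, adjusted p = 3.97e-08).

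The order of the levels changed accordingly. Per kilobase of longest transcript, Cdk4 led the 10 genes in Ter119neg WT cells at 88.7 ± 1.99 CPM per kb (SD, n = 2), followed by Ccne1 at 21.4 ± 1.53 and Ccnd3 at 15.0 ± 0.80, and Cdkn2c was last at 1.05 ± 0.18. By exon union Cdk4, Ccne1 and Cdkn2c keep those places and Ccnd3 is sixth (6.60 CPM per kb). In Ter119pos WT cells Ccnd3 led at 85.8 ± 8.56 CPM per kb and Cdkn2d was second at 70.9 ± 9.45, neighbours that lie close to their spread and change places when the union of annotated exons is used as the length (37.7 for Ccnd3 and 64.1 for Cdkn2d). Cdk4 at 29.9 ± 5.28 did not differ from its neighbours Ccne2 (33.3 ± 2.49) and Cdkn1b (26.5 ± 3.06) beyond its spread. Ccnd2 (2.14 ± 0.38), Cdk6 (1.83 ± 0.21) and Ccnd1 (0.63 ± 0.16) closed the order, the former pair within their spread. In Ter119pos KO cells Ccnd3 led at 161 ± 4.17 CPM per kb, Cdk4 followed at 34.4 ± 3.24, within its spread of Ccne1 at 32.6 ± 2.04, and Ccnd2 stood sixth at 18.8 ± 0.74. By exon union Ccnd3 still led (70.9), Cdk4 (21.7) stood below Ccne1, Cdkn2d and Ccne2 (24.5, 22.9 and 22.4), and Ccnd2 (12.7) also below Cdkn1b (17.9). Cdk4 led in Ter119neg KO cells (63.3 ± 3.11) and, with a wide spread, in LK WT (301 ± 214) and LK KO cells (162 ± 56.1, SD, n = 3).

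Without Prmt5, 9 of the 10 genes still differed between the fractions in the same direction as in WT, 6 higher and 3 lower, beside 62.6% of all genes. The exception was Ccnd2, with 101 and 104 CPM in Ter119neg KO and 123 and 116 CPM in Ter119pos KO libraries, where the WT libraries had shown a fall. Its difference was 0.22 ± 0.15 on the log2 scale (95% interval -0.12 to 0.55, adjusted p = 0.237). With the mouse as a block, as the same 2 KO mice gave both fractions, the difference was again 0.22 but called (adjusted p = 0.0219). Expected counts of Ccnd2 were 3673 and 3922 in Ter119neg KO and 1751 and 1344 in Ter119pos KO libraries. Library totals were 22381074 and 27620734 in Ter119neg KO and 29652947 and 28399110 in Ter119pos KO. Relative to these totals Ccnd2 was lower in Ter119pos KO too, so its missing fall rests on the TMM factors. Ccnd3 rose from 64.8 and 71.8 to 610 and 633 CPM (log2 3.19 ± 0.15, adjusted p = 2.96e-09), and Cdkn2d rose from 4.43 and 5.13 to only 34.9 and 37.4 CPM (log2 2.91 ± 0.13, adjusted p = 2.99e-09). Cdk6 (log2 -2.60 ± 0.13) and Ccnd1 (-1.88 ± 0.21) fell in KO too, and so did Cdk4, by less than in WT (-0.88 ± 0.14, adjusted p = 1.30e-04).

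**Figure D2:**
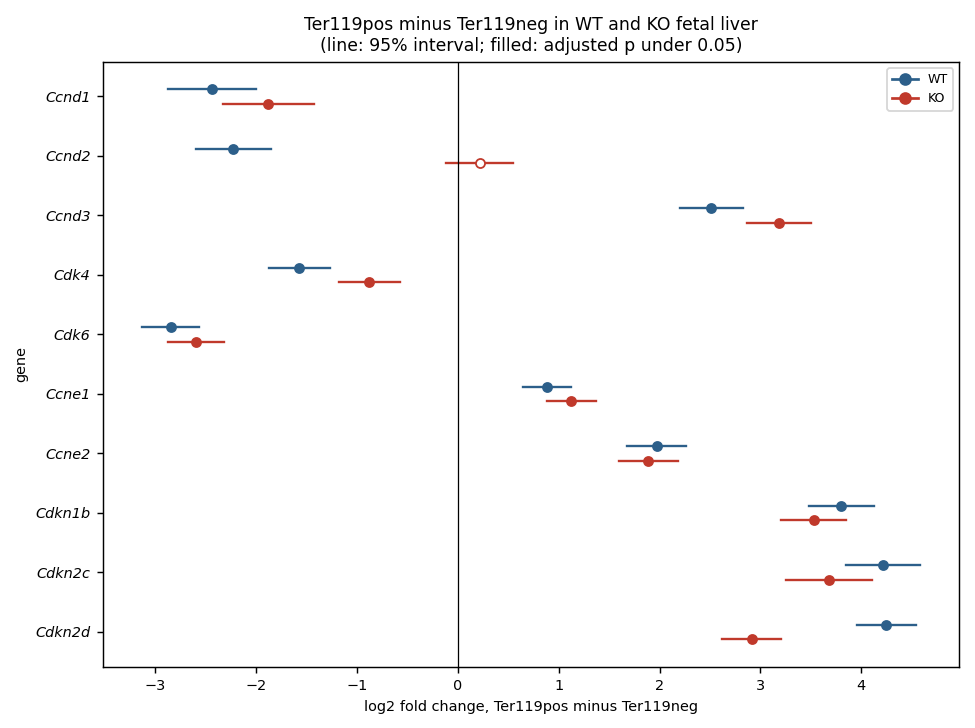
Log2 fold change from Ter119neg to Ter119pos cells for each gene in WT (blue) and KO (red) fetal liver, with 95% intervals; filled points have adjusted p under 0.05. The intervals of Ccnd2 (-2.23 in WT, 0.22 in KO) and Cdkn2d (4.25 and 2.91) lie apart between genotypes.

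A test of the difference between those 2 fraction effects, which is the same as the test of whether the KO effect differs between fractions, called 4 of the 10 genes, 3 higher and 1 lower, beside 41.7% of all genes. Ccnd2 had the largest value of the 10 at 2.44 ± 0.23 on the log2 scale (adjusted p = 1.81e-05). Cdk4 at 0.69 ± 0.19 (adjusted p = 0.0133) and Ccnd3 at 0.67 ± 0.19 (adjusted p = 0.0142) were also higher, and Cdkn2d was lower at -1.34 ± 0.18 (adjusted p = 1.36e-04). The other 6 were not called: Cdkn2c had -0.54 (95% interval -1.12 to 0.04), Ccnd1 0.56 (-0.09 to 1.22), and Cdk6, Ccne1, Ccne2 and Cdkn1b between -0.27 and 0.25. The call for Cdk4 was lost without the first Ter119pos KO library (adjusted p = 0.0572) or the first Ter119pos WT library (0.0595), and that for Ccnd3 without the second Ter119pos WT library (0.0505), which in turn brought Cdkn2c under the threshold (-0.72, adjusted p = 0.0402). The comparisons within fetal liver share libraries, so their values are set side by side and are not independent.

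In Ter119pos KO cells the 2 D-type cyclins Ccnd2 and Ccnd3 rose against WT, and 5 genes fell: both E-type cyclins and the 3 inhibitors. These 7 of 10 calls stand beside 54.2% of all genes. The median log2 difference was -0.04 over the 10 genes and also -0.04 over all genes tested.

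Ccnd2 showed the largest change of the 10. Its 2 KO libraries had 123 and 116 CPM and its 2 WT libraries 11.9 and 15.2 CPM, 8.80-fold higher in KO (log2 3.14 ± 0.18, adjusted p = 9.03e-08). After TMM scaling the KO level lay near that of Ter119neg KO cells, and relative to library totals it lay below. Ccnd3, already the main D-type cyclin of the fraction, had 610 and 633 CPM in KO against 354 and 308 in WT (log2 0.91 ± 0.14, adjusted p = 1.06e-04). Its expected counts were 8717 and 7340 in KO and 5891 and 5225 in WT. Library totals were 29652947 and 28399110 in KO and 21017228 and 19880052 in WT. Relative to these totals the genotypes were close, so the Ccnd3 rise rests on the TMM factors. The size of every other difference between these genotypes, the inhibitor falls among them, rests on the same factors. No setting tried scaled by library total alone. Ccnd1 had 3.15 and 2.502 CPM against 2.77 and 1.94, with overlapping groups (log2 0.28, 95% interval -0.28 to 0.83). The summed D-type cyclin level per kilobase, mostly Ccnd3 and scaled the same way, was 181 ± 3.32 CPM per kb in KO and 88.5 ± 8.34 in WT (SD, n = 2). Within that sum Ccnd2 made up 10.4% ± 0.59 in KO and 2.45% ± 0.66 in WT, and Ccnd3 still made up 89.2% ± 0.67 in KO. With the exon union as the length, the Ccnd2 shares were 15.1% and 3.68%.

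**Figure D3:**
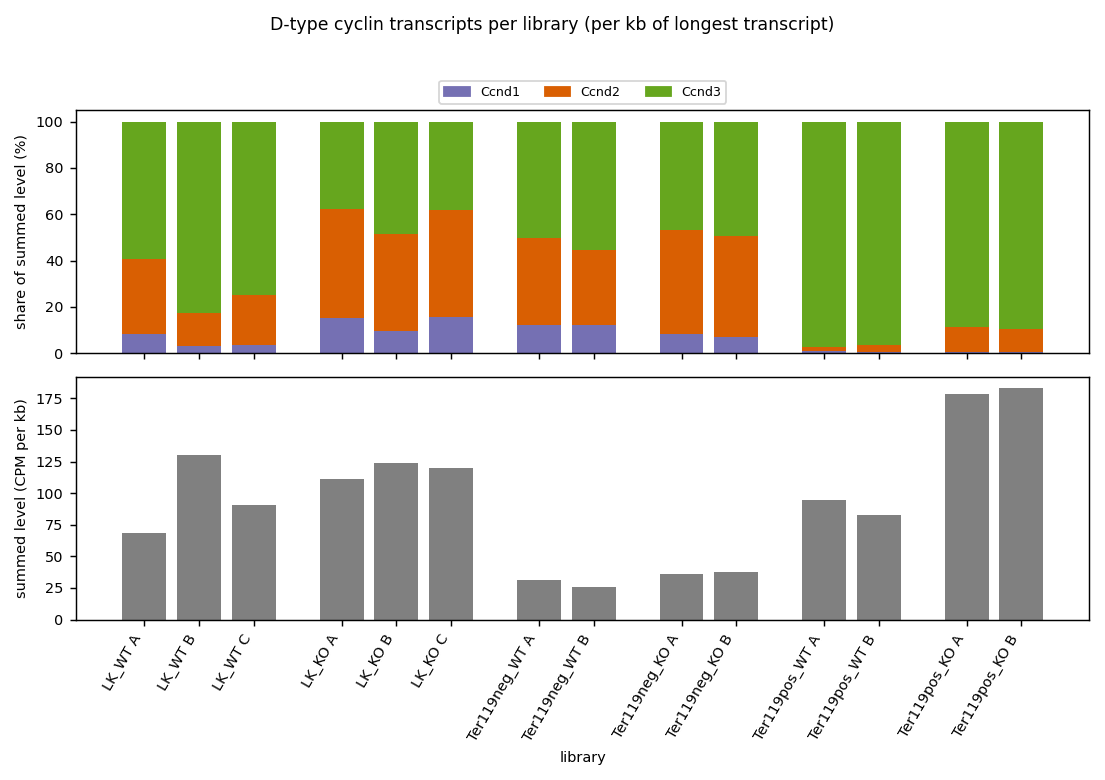
Share of each D-type cyclin in their summed level (upper panel, percent) and that sum (lower panel, CPM per kb of longest transcript) in each of the 14 libraries. The Ter119pos KO libraries have the highest sums, averaging 181 CPM per kb, and a Ccnd2 share of 10.01% to 10.9%, against 1.98% to 2.91% in Ter119pos WT.

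The INK4 inhibitors fell most. Cdkn2c had 16.2 and 15.0 CPM in the Ter119pos KO libraries and 54.5 and 41.7 in WT (log2 -1.62 ± 0.16, adjusted p = 2.84e-06). Cdkn2d had 34.9 and 37.4 CPM against 110 and 91.4 (log2 -1.48 ± 0.12, adjusted p = 7.70e-07). Cdkn1b, which binds cyclin-kinase complexes, had 76.6 and 85.9 CPM against 131 and 111, a smaller fall (log2 -0.57 ± 0.13, adjusted p = 0.00266). KO libraries lay below WT libraries for all 3 inhibitors. The genotypes did not overlap for 7 of the 10 members, beside 75.5% of all genes tested. All 3 nevertheless stayed above their Ter119neg levels, as the fraction comparison in KO showed. Summed per kilobase, the 3 inhibitors reached 49.5 ± 2.34 CPM per kb in KO and 117 ± 16.2 in WT (SD, n = 2).

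After TMM scaling the E-type cyclins and the kinases moved little in Ter119pos cells. Ccne1 had 68.0 and 62.3 CPM in KO against 74.4 and 83.7 in WT (log2 -0.28 ± 0.11, adjusted p = 0.0482), and Ccne2 74.6 and 81.9 against 106 and 94.9 (log2 -0.36 ± 0.13, adjusted p = 0.0339). Both calls lie near the threshold: with globin and 18S genes left out of the counts, Ccne1 was -0.17 (adjusted p = 0.244) and Ccne2 -0.25 (0.106), and with the Ter119pos libraries fitted alone -0.10 (0.514) and -0.18 (0.227). Leaving out 1 library also ended the Ccne1 call (without the first KO, second KO or second WT library, adjusted p = 0.0622, 0.241 and 0.247) and the Ccne2 call (without the first KO, second KO or first WT library, 0.171, 0.0613 and 0.165). Globin genes took 16.4% and 18.3% of counts in the KO and 25.1% and 24.6% in the WT libraries. Leaving globin and 18S out raised the median of all genes in this comparison by 0.11 on the log2 scale, and fitting the fraction alone by 0.18; relative to those shifts Ccnd2, Ccnd3 and the 3 inhibitors kept their calls. Cdk4 had 75.3 and 65.9 CPM in KO against 53.6 and 69.0 in WT (log2 0.20, 95% interval -0.10 to 0.51) and Cdk6 22.6 and 25.9 against 19.4 and 22.8 (0.20, -0.09 to 0.48), with overlapping groups and no call. The fit of the fraction alone called both higher (Cdk4 0.38, adjusted p = 0.0483, and Cdk6 0.38, adjusted p = 0.0499), and removal of the trend with transcript length called Cdk6 (0.55, adjusted p = 0.0058) and left Cdk4 at 0.04. Expected counts in KO and WT were 972 and 722 against 1238 and 1423 for Ccne1, and 1065 and 949 against 1754 and 1612 for Ccne2. They were 1076 and 764 against 892 and 1172 for Cdk4, and 323 and 300 against 322 and 388 for Cdk6. Relative to the larger library totals of KO, these cyclins and kinases were all lower in KO.

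Markers of other cells in the Ter119pos fraction are given beside these values. The 7 erythroid genes summed to 334500 and 438600 CPM in KO and between 301200 and 335700 in WT, with 0 called higher and 1 lower. Globin genes took a smaller share of all counts in KO (16.4% and 18.3% against 25.1% and 24.6%). The order of these sums thus rests on the TMM factors. The 6 early progenitor genes, none at 0, summed to 19.1 and 22.7 CPM in KO and 13.5 and 15.8 in WT (2 higher, 1 lower), well under the 159 to 220 of the Ter119neg libraries. Of 5 megakaryocyte genes 4 were higher and 1 lower in KO (30.2 to 31.1 CPM against 18.9 to 20.01), and of 5 endothelial or stromal genes 3 were higher and 1 lower (13.6 to 31.8 against 5.24 to 7.70). All 5 hepatoblast genes were higher at unadjusted p under 0.05 and 3 were called (49.8 and 70.5 CPM against 25.4 and 35.5, with 1 of them at 0 in 1 WT library). Granulocyte genes were lower in 5 of 8 cases and higher in 0 (26.0 to 74.6 against 89.0 to 175), and macrophage genes lower in 3 of 8 and higher in 0, with overlapping sums (35.8 to 46.0 against 36.6 to 66.1). Of 5 mast cell or eosinophil genes 1 was lower (2.17 to 4.83 against 3.41 to 3.67), and of 4 tested lymphoid genes 0 were called (1 lower at unadjusted p under 0.05; 0.52 to 0.56 against 0.59 to 1.86). The part of these genes' cells in the values of the G1 genes was not tested.

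**Figure D4:**
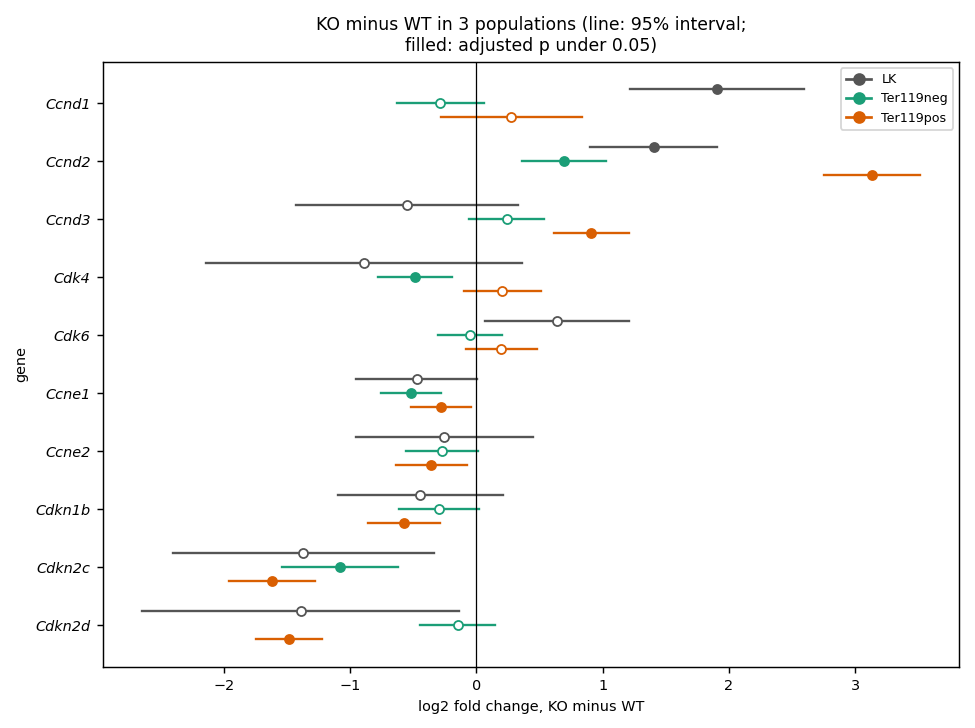
Log2 fold change, KO minus WT, of each gene in LK (grey), Ter119neg (green) and Ter119pos (orange) cells with 95% intervals, without a block; filled points have adjusted p under 0.05. Ccnd2 is called higher in all 3 populations (1.40, 0.69 and 3.14), and Cdkn2c has negative values in all 3 (-1.37, -1.08 and -1.62), called in the 2 fetal fractions.

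In Ter119neg cells the KO effect was smaller: 1 of the 10 genes rose (Ccnd2) and 3 fell (Cdk4, Ccne1 and Cdkn2c), beside 19.1% of all genes. The median over the 10 was -0.28 and over all genes 0.01 on the log2 scale. Ccnd2 had 101 and 104 CPM in KO and 73.8 and 53.1 in WT (log2 0.69 ± 0.15, adjusted p = 0.00809). Its expected counts were 3673 and 3922 in KO and 3794 and 2224 in WT. Library totals were 22381074 and 27620734 in KO and 26162877 and 24341843 in WT. Relative to these totals the genotypes overlapped for Ccnd2, so their separation rests on the TMM factors. Cdkn2c, at its lowest in this fraction, had 1.16 and 1.28 CPM in KO and 2.28 and 2.91 in WT (log2 -1.08 ± 0.21, adjusted p = 0.00388). After TMM scaling the groups did not overlap for either gene, as for 62.6% of all genes tested.

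Ccne1 had 30.3 and 29.5 CPM in Ter119neg KO against 44.96 and 40.6 in WT (log2 -0.52 ± 0.11, adjusted p = 0.0060), and Cdk4 had 135 and 125 against 185 and 179 (log2 -0.49 ± 0.14, adjusted p = 0.0258). Ccne1, partner of Cdk2, and Cdk4, partner of the D-type cyclins, thus both fell by less than 1 log2 unit. With 2 libraries a group these calls rest on each library. The Cdk4 call was lost when any of the 4 libraries was left out (adjusted p between 0.0737 and 0.138), the Ccne1 call without the second KO (0.0552) or first WT library (0.0654), and the Ccnd2 call without the second KO (0.0705) or second WT library (0.141), where its log2 value was 0.43. The Cdkn2c call held under each of these omissions.

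The other 6 genes were not called in Ter119neg cells. Cdk6 had 144 and 149 CPM in KO and 154 and 150 in WT, a log2 difference of -0.05 with a 95% interval of -0.31 to 0.20. Cdkn2d had 4.43 and 5.13 against 5.25 and 5.34 CPM (-0.15, interval -0.45 to 0.15), Cdkn1b 6.52 and 7.55 against 7.74 and 9.59 (-0.30, -0.61 to 0.02), and Ccne2 19.1 and 23.1 against 23.2 and 28.0 (-0.27, -0.56 to 0.01). Ccnd1 had 11.3 and 9.71 against 13.9 and 11.7 CPM (-0.29, -0.63 to 0.06), and Ccnd3 64.8 and 71.8 against 60.1 and 55.7 (0.24, -0.06 to 0.53). After TMM scaling the libraries of the 2 genotypes did not overlap for any of the 10 genes. The same held for 62.6% of all genes tested, and for these 6 the gaps were narrow. Macrophage genes were lower in this fraction, with all 8 called and a summed CPM of 28.1 to 32.4 in KO against 122 to 127 in WT, and 6 of 7 erythroid genes were higher, 769 to 1375 against 399 to 486. None of these genes was at 0. Early progenitor genes were lower in 3 of 6 cases (159 and 187 CPM against 204 and 220), and 2 of 8 granulocyte genes (900 to 1252 against 1640 to 1685), 2 of 4 tested lymphoid genes (2.01 to 2.69 against 7.61 to 9.04, with 1 of 5 at 0 in each library) and 1 of 5 hepatoblast genes (110 to 215 against 224 to 371) were called lower. Of 5 endothelial or stromal genes 2 were higher and 1 lower (29.2 to 55.5 against 22.4 to 27.1). Of 5 megakaryocyte genes 1 was higher and 1 lower (40.7 to 48.3 against 39.3 to 45.5). Of 5 mast cell or eosinophil genes 1 was lower (84.1 to 141 against 92.2 to 140). The part of these cells in the values of the G1 genes was not tested.

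In adult LK cells the D-type cyclins Ccnd1 and Ccnd2 rose in KO and none of the 10 fell, beside 1.82% of 13771 genes. Ccnd1 had 62.3, 44.6 and 70.2 CPM in the 3 KO libraries and 20.7, 14.4 and 12.1 in the 3 WT libraries, 3.75-fold higher (log2 1.91 ± 0.29, adjusted p = 0.0303). Ccnd2 had 332, 328 and 351 CPM in KO and 140, 120 and 123 in WT, 2.65-fold higher (log2 1.40 ± 0.22, adjusted p = 0.0295). By unadjusted p under 0.05, 3 of the 10 were higher and 2 lower (Cdkn2c and Cdkn2d), and DESeq2 called 3 higher and 1 lower. For both cyclins each KO library lay above each WT library. The genotypes did not overlap for 5 of the 10 members in LK cells, Cdk6 among them, beside 24.2% of all genes tested. Both calls ended without any one of the KO libraries or of the A and C libraries of WT, with log2 values of 1.75 to 2.20 for Ccnd1 (adjusted p between 0.0673 and 0.170) and 1.38 to 1.52 for Ccnd2 (0.0742 to 0.184). They held without WT library B (0.0423 and 0.0365).

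Ccnd3 differed from the other D-type cyclins in LK cells. It had 162, 231 and 176 CPM in KO and 157, 414 and 262 in WT, with overlapping groups (log2 -0.55, 95% interval -1.43 to 0.33). Per kilobase, Ccnd2 made up 45.2% ± 2.81 of the D-type cyclin sum in KO and 22.8% ± 8.99 in WT, and Ccnd3 41.4% ± 6.05 and 72.4% ± 11.7 (SD, n = 3). The sum itself was 118 ± 6.42 CPM per kb in KO and 96.3 ± 31.3 in WT, a difference within the spread of the WT libraries. With the exon union as the length the sums did not overlap, 67.0 to 72.3 in KO and 37.1 to 63.0 in WT, and this difference was not tested.

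With the letter as a block, 22.7% of all genes were called in LK cells and 5 of the 10 members, 3 higher and 2 lower. Ccnd1 (log2 1.92, adjusted p = 0.0026) and Ccnd2 (1.41, adjusted p = 0.00188) were again higher. Cdk6 joined them: it had 684, 795 and 705 CPM in KO and 461, 437 and 506 in WT, groups that did not overlap (log2 0.64, adjusted p = 0.239 without and 0.0332 with the block). Cdkn2c had 10.4, 26.0 and 22.9 CPM in KO and 28.7, 68.3 and 56.5 in WT, lower in KO within each letter (log2 -1.37, adjusted p = 0.174 without the block, and -1.39, 0.00182 with it). Cdkn2d had 15.7, 30.1 and 18.9 CPM in KO and 20.5, 94.0 and 55.5 in WT, overlapping across letters but lower in KO within each (-1.39, 0.243 without the block, and -1.20, 0.0195 with it).

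The remaining genes were called by neither LK fit. Cdk4 varied most, with 318, 454 and 225 CPM in KO and 448, 1116 and 287 in WT (log2 -0.89, adjusted p = 0.446 without and 0.0539 with the block). Ccne1 had 32.0, 33.7 and 29.9 CPM in KO, all below its 48.2, 47.7 and 36.7 in WT (log2 -0.47, adjusted p = 0.294 and 0.0514). Cdkn1b had 26.9, 29.5 and 32.6 against 26.5, 43.1 and 51.4 CPM, and Ccne2 23.0, 20.3 and 25.7 against 21.7, 21.2 and 39.3, both with overlapping groups.

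Long genes tended to be higher and short genes lower in LK KO: over 8 bins of transcript length, the median log2 difference of all genes went from -0.37 in the shortest bin (141 to 1275 bases) to 0.22 in the longest (from 6036 bases). The members' longest transcripts range from 1423 bases (Cdkn2d) to 11525 bases (Cdk6), with Ccnd1 at 3740, Ccnd2 at 6330 and Cdkn2c at 2471. With that trend removed and the letter as a block, Ccnd1 (1.93, adjusted p = 0.00147), Ccnd2 (1.23, 0.00111), Cdkn2c (-1.24, 9.72e-04) and Cdkn2d (-0.95, 0.0206) were still called. Cdk6 dropped to 0.28 (adjusted p = 0.0948), and Cdk4 was called lower (-0.53, 0.0396).

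**Figure D5:**
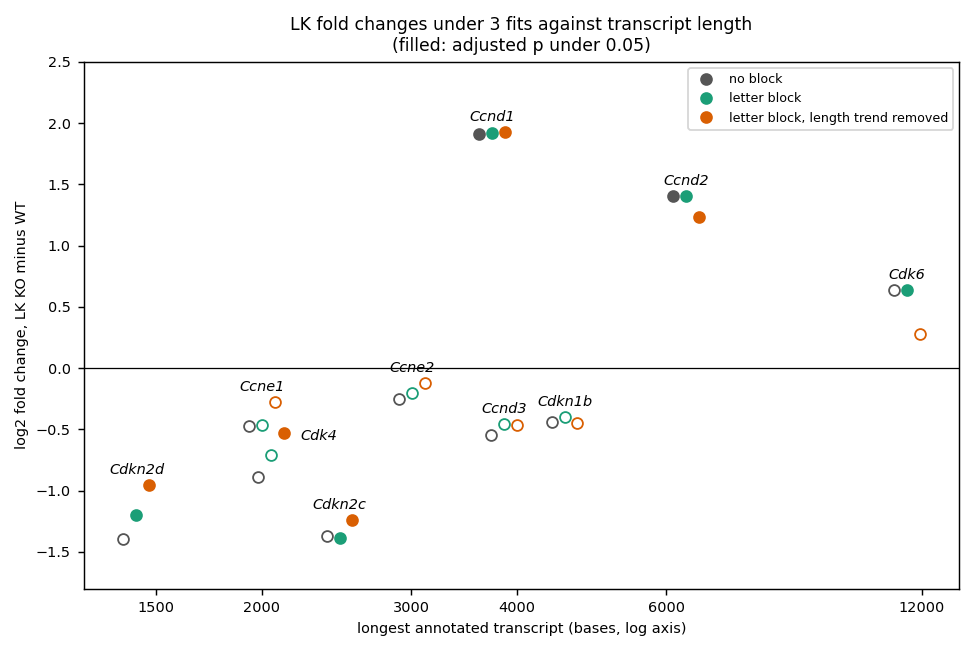
LK log2 fold change, KO minus WT, of each gene under 3 fits against its longest annotated transcript (bases, log axis; points of a gene are set slightly apart); filled points have adjusted p under 0.05. Ccnd1 and Ccnd2 are filled under all 3 fits, and Cdk6, with a transcript of 11525 bases, drops from 0.64 to 0.28 when the length trend is removed.

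Granulocyte genes moved with genotype in LK cells too. The 8 granulocyte genes summed to 7496 to 15180 CPM in KO and 19340 to 44460 in WT (0 of 8 called without the block, 3 at unadjusted p under 0.05, and 8 of 8 lower with the block), and the 6 early progenitor genes to 746 to 1175 in KO and 559 to 805 in WT (0 of 6 called without the block, 1 at unadjusted p under 0.05, and 2 higher with the block). The 5 mast cell or eosinophil genes summed to 135 to 311 CPM in KO and 569 to 1949 in WT (1 lower without the block, 4 at unadjusted p under 0.05, and 4 lower with the block). The macrophage genes summed to 98.3 to 218 in KO and 210 to 279 in WT (of 5 tested, 1 lower without and 2 lower with the block), with 2 of 8 at 0 in 1 KO library. The 7 erythroid genes had overlapping sums, 59.1 to 185 in KO and 64.2 to 338 in WT (1 lower without and 3 lower with the block). The 1 endothelial or stromal gene tested was higher in both fits (list sums 3.98 to 7.62 against 1.14 to 2.57). Of 4 tested megakaryocyte genes 1 was higher in both fits (59.5 to 98.9 against 44.3 to 69.9). With the block alone, 2 of 3 tested lymphoid genes and 1 of 3 tested hepatoblast genes were higher. Each of these lists had genes at 0 in some libraries. None of the granulocyte, progenitor, erythroid, mast cell or eosinophil genes was at 0 in any LK library. Their cells' part in the LK values of Ccnd1, Ccnd2, Cdk6 and the INK4 genes was not tested.

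Of 37 further genes of the G1 pathway, listed by role with earlier results known, 34 were tested in LK and 35 in fetal cells. In LK KO 1 was higher and 0 lower (3 and 2 at unadjusted p under 0.05), beside 1.82% of all genes called, and with the block 5 and 5, beside 22.7%. In Ter119neg KO 5 were higher and 7 lower, beside 19.1%, and in Ter119pos KO 11 and 17, beside 54.2%. The gene called higher in LK was Cdkn1a (p21), an inhibitor of Cdk2 and a well-known p53 target. It reached 275 ± 85.0 CPM in LK KO against 10.1 ± 3.11 in WT (SD, n = 3; log2 4.77 ± 0.38, adjusted p = 0.00293), 52.0 ± 4.75 against 3.47 ± 3.09 in Ter119neg cells and 286 ± 41.4 against 1.37 ± 0.10 in Ter119pos cells (SD, n = 2). Its direction was thus opposite to that of the members Cdkn1b, Cdkn2c and Cdkn2d in Ter119pos KO cells. The INK4 genes Cdkn2a and Cdkn2b did not pass the count filter in any comparison, and Cdkn1c did not in LK.

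The pocket proteins and E2F factors, which act downstream of the cyclin D kinases, were lower in Ter119pos KO cells in 7 of 10 cases and higher in 0 (8 and 0 at unadjusted p under 0.05), where 4566 of all 15566 genes were lower and 3864 higher. Among the genes with the smallest p there, Rbl1 (p107) fell by 1.36 and the E2F partner Tfdp1 by 1.08 on the log2 scale (adjusted p = 2.02e-06 and 2.95e-06). Skp2, the ligase subunit that marks p27 for degradation, had 13.3 ± 0.45 CPM in KO and 50.3 ± 6.87 in WT (log2 -1.92 ± 0.13, adjusted p = 2.43e-07), so that the transcripts of p27 and of this regulator fell together. In Ter119neg KO cells Rb1 rose by 1.10 (adjusted p = 5.11e-04) and Rbl2 (p130) by 0.53 (0.00561), while Tfdp1 fell by 0.49 (0.00494).

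Between the fractions in WT, 20 of the 35 further genes were higher and 11 lower in Ter119pos cells, beside 76.3% of all genes called, and in KO 16 and 11, beside 62.6%. E2f2, an E2F factor known in maturing red cells, was 66.5-fold higher in WT and 29.6-fold in KO, the phosphatase Cdc25b 95.3-fold and 77.8-fold, and the E2F partner Tfdp2 41.8-fold and 11.5-fold, each with adjusted p of 5.83e-09 or less. Myc was lower in both (log2 -3.10 and -2.77), as Ccnd1, Cdk4 and Cdk6 were. The interaction called 7 higher and 15 lower, beside 41.7% of all genes, among them Skp2 (-1.50), Rb1 (-1.45), Tfdp2 (-1.86) and Foxo3 (-1.33), a factor known to raise Cdkn1b. In LK the next genes by p after Cdkn1a were called only with the block: Foxo3 (log2 1.00, adjusted p = 0.0709 without and 0.00583 with it), Cdc25b (-0.97, 0.0942 and 0.00676) and Mycn (1.40, 0.204 and 0.0123).

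Ccnd1, Ccnd2, Ccnd3, Cdk4, Cdk6 and Ccne2 each share exon bases with a gene on the opposite strand. The overlaps are 1100 bases with LTO1 for Ccnd1, 368 with 9330179D12Rik and 372 with Gm43126 for Ccnd2, 361 with Bysl for Ccnd3, 641 with Tspan31 for Cdk4, 368 with Gm17590 for Cdk6, and 609 with Ints8 for Ccne2. The library kit keeps the strand, but the strand setting of the counting is not given in the sources used here, so values of these 6 genes may hold some reads of the partner gene. Ccne1, Cdkn1b, Cdkn2c and Cdkn2d have no such overlap. The genes lie at chr7:144929931-144939925 (Ccnd1, minus strand), chr6:127125162-127152193 (Ccnd2, minus), chr17:47505051-47599691 (Ccnd3, plus), chr10:127063534-127067920 (Cdk4, plus), chr5:3341485-3531008 (Cdk6, plus), chr7:38097984-38107534 (Ccne1, minus), chr4:11191351-11204779 (Ccne2, plus), chr6:134920401-134925513 (Cdkn1b, plus), chr4:109660876-109667189 (Cdkn2c, minus) and chr9:21288410-21291407 (Cdkn2d, minus).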

How the data were processed

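The deposited tables hold expected counts per gene from RSEM, which the authors made from STAR 2.5.3 alignments to GRCm38 (mm10) according to the submitters' processing notes; what the sources used here do not give is the RSEM version, the annotation, the strand setting and the alignment options. Per the labels' protocols, fetal and LK libraries alike used a TruSeq stranded kit for total RNA, with ribosomal RNA depletion named for the fetal libraries, and RNA was extracted with different reagents for fetal and LK cells, so the 2 tables were never tested against each other.

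Expected counts were rounded to whole numbers, normalised by TMM and tested with edgeR 4.0.16 (quasi-likelihood F test, filterByExpr, Benjamini-Hochberg over all genes tested, called at adjusted p under 0.05) in R 4.3.3. The 6 LK libraries had a model of their own, and the 8 fetal libraries shared one, with 1 mean per group. Levels are TMM-normalised CPM, also per kilobase of longest transcript or exon union from GENCODE M21. The size of fetal differences, and for small ones the direction, rests on the TMM factors. Alternatives used RLE size factors, no count filter, DESeq2 1.42.0, limma-voom (limma 3.58.1), removal of globin and 18S genes, normalization on protein-coding genes, removal of a lowess trend with transcript length (span 0.3), replicate or mouse blocks, the fraction alone and omission of libraries; the protein-coding, length and random mouse settings were chosen after seeing the data.

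The main LK fit, with its intervals, had no block. LK letters were treated as pairs in the block fits alone, because same-letter deviations correlated in all 3 letters (r = 0.70, 0.80 and 0.82). Fetal letters correlated little (0.07 and 0.02). Fetal mice 1, 2 and 4 pair the fractions by animal (r = 0.31, 0.31 and -0.15), a pairing that the main fetal fit left out. The 10 members, and up to 4 further G1 genes per comparison by smallest p, were named; members and lists were chosen with earlier results of these data known. Library totals of 19514550 to 30976961 counts set the counting precision, and 1 of the 55 marker genes listed had no row.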

Additional observations from a re-analysis of the deposited data

Results flagged for a closer look

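The KO effect differed between the fetal fractions, by the interaction test, for Ccnd2 (2.44 on the log2 scale, Ter119pos minus Ter119neg), Ccnd3 (0.67), Cdk4 (0.69) and Cdkn2d (-1.34). In 2 more genes every KO library lay on one side of WT in LK cells and on the other in Ter119neg cells: Ccnd1 had log2 differences of 1.91 and -0.29, and Cdk6 0.64 and -0.054. In TMM-normalised CPM, groups did not overlap for 24.2% of all genes in LK cells and 62.6% in Ter119neg cells, where all 10 members were apart. For Cdk6 the nearest Ter119neg libraries had 149 (KO) and 150 CPM (WT), so no opposite change is shown. The difference between LK and fetal cells was not tested, since the populations come from separate tables, and neither Ter119neg value was called.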

How the results depend on the processing

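Of the 6 comparisons, LK and Ter119neg KO minus WT were those whose number of called members moved by more than 1.5 times under any setting tried. In LK cells 2 members were called; DESeq2 called 4 (Ccnd1, Ccnd2, Cdk6 and Cdkn2c), the letter block 5, the letter block with the length trend removed 5, omission of both letter B libraries 0 and of both letter C libraries 0, and omission of 1 library 0 to 2. In Ter119neg cells 4 were called, and 1 to 3 when 1 library was left out. The fetal letter block changed no member's call, and the mouse block changed only that of Ccnd2 between fractions in KO. Gene-wide, LK calls numbered 250, against 1074 by DESeq2, 474 with the length trend removed, 3129 with the block, 3747 with both, 71 without letter B, 14 without letter C and 33 to 268 with 1 library left out; Ter119neg calls numbered 2976, and 1450 to 1788 with 1 library left out.

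Signs reversed in 7 uncalled cases. Ccne2 in LK cells went from -0.25 to 0.10 without WT library C (range -0.41 to 0.10 with 1 library left out) and to 0.053 without both letter C libraries. In the interaction, Ccne2 went from -0.083 to 0.048 without globin and 18S genes, 0.22 without the second Ter119neg KO library, 0.20 without the first Ter119neg WT library and 0.13 with the mouse block (range -0.16 to 0.22 with 1 library left out), and Cdkn1b went from -0.27 to 0.025 without the first Ter119neg WT library (range -0.39 to 0.025). The cause was not tested. Several scalings moved the median of all genes by more than 0.1, up to 0.22 between fractions in KO with the length trend removed, and Ccnd2 was then called there (0.61, adjusted p = 0.0039). With globin and 18S genes removed, the calls in Ter119pos KO were 4293 higher and 4137 lower, against 3864 and 4566. With 2 or 3 libraries a group, intervals for single genes were wide: in LK cells that of Cdk4 ran from -2.15 to 0.36.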
